A study of Mus musculus with 2 samples.

Results

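The 26 genes described here encode 19 enzymes of cholesterol synthesis, from the condensation of acetyl-CoA to the last reduction, and 7 proteins of the sterol regulatory element-binding protein (SREBP) pathway, which sets the level of those enzymes. They were chosen by name for their place in the pathway, with earlier results of these data known. They are 26 of the 55536 annotated mouse genes in the tables. Their RNA was measured in whole adrenal gland from 2 female B6CASTF1/J mice, an F1 hybrid of C57BL/6J and CAST/EiJ, at an age of 18 to 20 months. Neither animal carried a transgene or received a treatment that the labels name. Each animal gave 1 library of total RNA, made from 300 ng after reduction of ribosomal RNA, with the strand kept and with ERCC spike-ins (synthetic RNAs of known sequence) added. The animals form a single group, so the comparisons are between genes and between the animals, with no test.

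The group has limits as a model. Reads of a hybrid were assigned to mm10, the C57BL/6J genome, and transcripts from the 2 parental alleles were not separated in these tables. The donor identifier is the same for both samples, and one description of animal 2 repeats the animal name of animal 1. The remaining labels of animal 2 name another female and another piece of tissue. The strain, sex, age and tissue were the same for both.

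Cells make cholesterol from acetyl-CoA through mevalonate, farnesyl diphosphate, squalene and lanosterol. When membranes of the endoplasmic reticulum are poor in sterol, SCAP carries SREBP to the Golgi, where the site-1 and site-2 proteases release the part that enters the nucleus. INSIG proteins hold SCAP back when sterol is plentiful. The adrenal cortex uses cholesterol as the starting material of steroid hormones, and in rodents takes most of it from lipoproteins.

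The deposited tables held 35769717 expected counts in animal 1 and 35135703 in animal 2 (an expected count is the estimated number of reads or fragments of a gene and need not be whole). Levels are given as TPM, the abundance of a gene's transcripts corrected for their length and scaled to a fixed total per library. The labelled tissue carried its markers. All 7 genes of the steroidogenic cortex were detected, with a sum of 15669 TPM in animal 1, against 20106 TPM in animal 2. All 5 chromaffin genes of the medulla were detected, with sums of 1796 TPM in animal 1 and 1517 TPM in animal 2. Of 9 adipocyte genes 8 were detected, with sums of 3495 TPM in animal 1, against 2241 TPM in animal 2. The 8 striated muscle genes had a sum of 168.5 TPM in animal 1, against 0.35 TPM in animal 2, in which Ckm, Myh2, Myh4 and Atp2a1 were listed at 0. Of 6 hepatocyte genes 2 were detected, and their sums of 96.4 TPM in animal 1 and 101 TPM in animal 2 came mostly from Cyp2e1. Alb, the other detected one, had 11.2 TPM in animal 1 and 3.45 in animal 2, and both Alb and the undetected Apob were at least 1.5-fold higher in animal 1. Apoa1, Ttr and Serpina1a were under 1 TPM in at least 1 animal, each with the higher value in animal 1. In bulk tissue, fewer cells of a type and less RNA per cell cannot be told apart.

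RefSeq promoters (build GRCm38.p6, from 250 bases before to 50 bases after a start) were found for 23 of the 26 genes, in 31 entries. Fdps, Sqle and Fdft1 had no entry. The 6 shown are a selection. They are the starts of both forms of Srebf1, the most abundant member Dhcr7, and Hmgcs1, which carries the searched sterol element. Insig1 and Hsd17b7, which stood apart between the animals, complete them. Acat2 and Nsdhl also stood apart, and their promoters are not shown. Each is written 5′ to 3′ on the strand of the gene, and capitals mark the letters TCACNCCAC, a core form of the sterol regulatory element bound by SREBP, and CCAAT, the box bound by NF-Y, on either strand.
Srebf1, SREBP-1a start, chr11:60220578-60220877, minus strand: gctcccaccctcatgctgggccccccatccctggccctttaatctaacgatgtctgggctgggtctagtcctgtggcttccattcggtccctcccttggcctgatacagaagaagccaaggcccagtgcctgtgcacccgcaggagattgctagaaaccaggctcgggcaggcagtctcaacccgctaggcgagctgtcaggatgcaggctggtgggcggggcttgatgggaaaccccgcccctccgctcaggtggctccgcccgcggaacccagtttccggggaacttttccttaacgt
Srebf1, SREBP-1c start, chr11:60210422-60210721, minus strand: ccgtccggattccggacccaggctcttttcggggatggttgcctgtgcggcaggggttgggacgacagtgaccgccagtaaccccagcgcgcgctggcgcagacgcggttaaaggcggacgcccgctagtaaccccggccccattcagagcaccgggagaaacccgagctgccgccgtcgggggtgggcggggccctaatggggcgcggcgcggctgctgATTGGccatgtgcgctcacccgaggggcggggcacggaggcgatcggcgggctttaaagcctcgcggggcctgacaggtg
Hmgcs1, chr13:119690101-119690400, plus strand: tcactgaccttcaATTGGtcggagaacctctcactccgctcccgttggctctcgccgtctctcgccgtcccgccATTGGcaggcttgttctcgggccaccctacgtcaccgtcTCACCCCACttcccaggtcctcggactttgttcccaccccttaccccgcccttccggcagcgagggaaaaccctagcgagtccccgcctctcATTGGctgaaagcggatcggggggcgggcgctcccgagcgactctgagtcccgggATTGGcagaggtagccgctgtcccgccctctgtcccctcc
Insig1, chr5:28071162-28071461, plus strand: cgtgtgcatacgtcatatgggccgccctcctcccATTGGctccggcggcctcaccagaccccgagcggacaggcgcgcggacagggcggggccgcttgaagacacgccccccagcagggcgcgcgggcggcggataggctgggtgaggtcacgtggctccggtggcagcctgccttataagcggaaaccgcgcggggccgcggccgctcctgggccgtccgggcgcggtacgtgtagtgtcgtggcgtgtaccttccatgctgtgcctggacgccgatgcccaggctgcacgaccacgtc
Hsd17b7, chr1:169969156-169969455, minus strand: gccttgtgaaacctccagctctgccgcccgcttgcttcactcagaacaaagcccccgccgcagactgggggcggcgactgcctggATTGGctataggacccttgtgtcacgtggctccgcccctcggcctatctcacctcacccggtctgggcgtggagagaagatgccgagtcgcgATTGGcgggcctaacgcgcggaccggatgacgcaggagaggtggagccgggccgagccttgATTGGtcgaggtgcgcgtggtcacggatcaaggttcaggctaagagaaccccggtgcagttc
Dhcr7, downstream start, chr7:143829964-143830263, plus strand: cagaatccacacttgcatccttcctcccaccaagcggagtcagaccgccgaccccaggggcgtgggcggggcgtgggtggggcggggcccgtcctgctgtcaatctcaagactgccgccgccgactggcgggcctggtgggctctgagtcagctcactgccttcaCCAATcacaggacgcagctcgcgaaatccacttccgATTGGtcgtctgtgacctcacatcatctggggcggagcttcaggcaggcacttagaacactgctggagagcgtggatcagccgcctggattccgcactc

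The motif TCACNCCAC was found in 1 of the 23 genes, Hmgcs1, where it began 137 bases before the start. Over all 27025 genes with an entry, 1.44% held it in at least 1 promoter. Only these letters were searched in these windows, so a missing match does not show that a gene lacks a sterol element. CCAAT was found in 19 of the 23 genes, against 41.1% of all genes, where a match in any entry of a gene counted. Hmgcs1 and Nsdhl held it 4 times each. Dhcr7-202, the leading Dhcr7 transcript, begins 588 bases before the RefSeq start shown, so its own start is outside that window. The genes with no CCAAT in any entry were Acat2, Scap, Mbtps1 and Mbtps2. Insig2 held it only at its upstream start, with 0 TPM in animal 1 and 0.46 in animal 2 in the first transcript table. Pmvk held it only at the start of Pmvk-204. That transcript was listed at 0 TPM in both animals in the first transcript table, and had at most 1.03 TPM in the second. GGGCGG, the box bound by Sp1, was found in 20 of the 23 genes, against 38.2% of all genes. Of the Srebf1 promoters shown, the SREBP-1a start held no CCAAT and the SREBP-1c start held 1, beginning 30 bases before the start. None of the motifs contains another. A match describes these windows and says nothing of binding.

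All 26 genes were detected, which means a TPM of 1 or more in each library. The same held for 22.6% of all 55536 genes and for 52.4% of the 22015 nuclear protein-coding genes. Mean TPM ran over the members from 6.74 for Mvd to 271 for Dhcr7. Set among the detected nuclear protein-coding genes, Mvd stood at the 38.6 percentile and Dhcr7 at the 98.8 percentile. The 19 enzymes came to 773 TPM in animal 1, against 877 TPM in animal 2, or 825 ± 73.7 TPM (SD, n = 2). The 7 control genes summed to 232 TPM in animal 1, against 199.5 TPM in animal 2, or 216 ± 23.3 TPM (SD, n = 2). The sums thus moved in opposite ways between the animals.

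**Figure D1:**
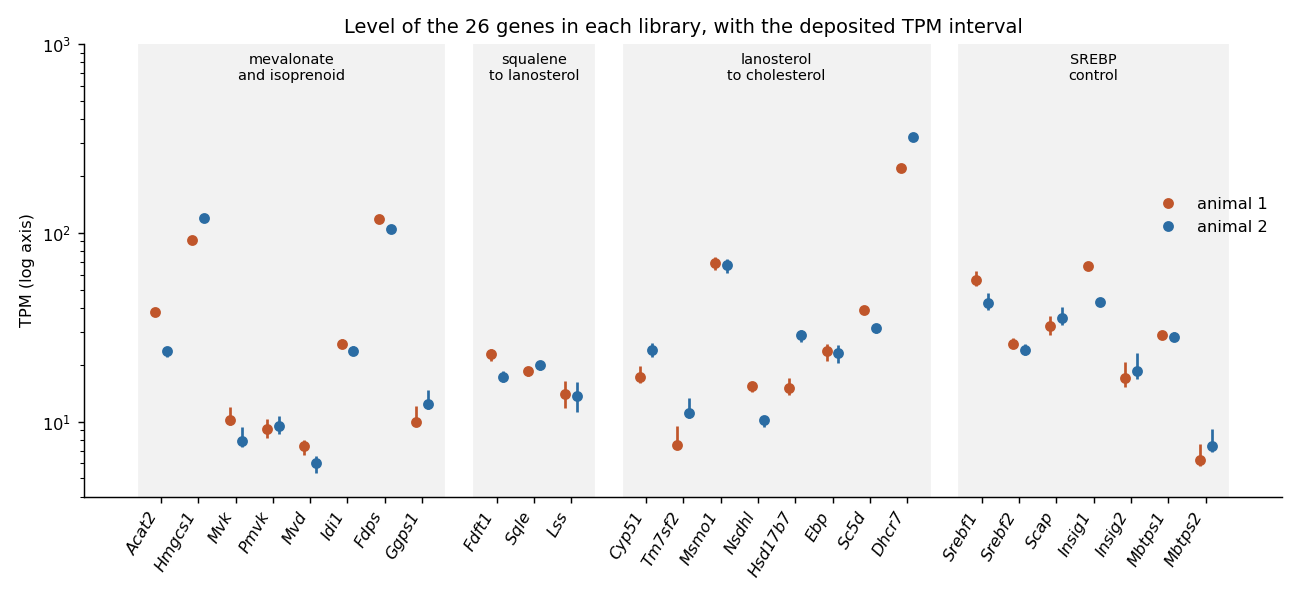
TPM of each gene in animal 1 (left point, orange) and animal 2 (right point, blue) on a log axis, in the order of the pathway. Lines are the deposited TPM intervals, and Dhcr7 is the highest point in both animals, at 220 TPM in animal 1 and 322 TPM in animal 2.

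Between the animals, a gene was called apart on 3 conditions. Its ratio of TMM-scaled expected counts had to reach 1.5-fold, its mean expected count 50, and the intervals deposited with its TPM had to lie apart. TMM is a scaling that assumes most genes are equal. The sources used here do not give the level of the intervals. Ratios are given as log2, animal 1 over animal 2. Of the 26 genes 3 were called higher in animal 1, against 5.03% of the 13570 genes with that count, and 1 was called higher in animal 2, against 4.67%. With spike-in totals in place of TMM, the calls of Acat2, Nsdhl and Insig1 were lost. Then 0 members were called higher in animal 1, against 2.69% of all genes, and 3 (Tm7sf2, Hsd17b7 and Dhcr7) higher in animal 2, against 9.45%. Intervals alone did not overlap for 9 genes higher in animal 1, against 12.5% of all genes, and for 5 higher in animal 2, against 20.6%. With TMM, under both rules the members higher in animal 2 were near the background share and those higher in animal 1 above it, a difference that was not tested. The background was not matched for depth. Every member had an expected count of at least 354.97 in each library, while genes of the background needed a mean of only 50. Scaled counts were higher in animal 1 for 16 of the 26, against 51.7% of all genes. With spike-in totals this was so for 9 of the 26 and for 26.6% of all genes. The median log2 ratio was 0.07 for the 26 and 0.01 for all genes.

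The early pathway ran from Acat2 to Ggps1. Acat2, the cytosolic thiolase that joins acetyl-CoA units, had 38.2 TPM in animal 1, against 23.6 TPM in animal 2 (30.9 ± 10.4, SD, n = 2). Its intervals, 36.3 to 39.2 TPM in animal 1 and 22.1 to 24.5 TPM in animal 2, did not overlap, and its log2 ratio of 0.74 made it 1.67-fold higher in animal 1. Hmgcs1, the cytosolic HMG-CoA synthase, had 91.1 TPM in animal 1, against 120 TPM in animal 2. Its intervals did not overlap either, but its log2 ratio of -0.34 was under the size rule. Acat2 and Hmgcs1 catalyse successive reactions, and stood in opposite directions.

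The kinases and the decarboxylase that turn mevalonate into isopentenyl diphosphate were, with Tm7sf2 further down the pathway, the 4 lowest enzymes by mean TPM. In single animals the order differed, with Ggps1 below Mvk in animal 1 and Nsdhl below Tm7sf2 in animal 2. Mvk, the mevalonate kinase, had 10.2 TPM in animal 1, against 7.89 TPM in animal 2 (log2 ratio 0.38, intervals apart). Pmvk, the phosphomevalonate kinase, had 9.13 TPM in animal 1 and 9.49 in animal 2 with overlapping intervals. Mvd, the mevalonate diphosphate decarboxylase, had 7.42 TPM in animal 1, against 6.06 TPM in animal 2 (log2 ratio 0.34, intervals apart). Idi1, which isomerises isopentenyl diphosphate, had 25.9 TPM in animal 1 and 23.8 in animal 2, with overlapping intervals.

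Fdps, which makes farnesyl diphosphate, had the second highest mean TPM, ahead of Hmgcs1 in animal 1 and behind it in animal 2. It had 118 TPM in animal 1, against 104 TPM in animal 2 (111 ± 9.39, SD, n = 2; log2 ratio 0.21 with TMM and -0.01 with spike-in totals, intervals apart). Ggps1, which draws farnesyl diphosphate into geranylgeranyl diphosphate for protein prenylation, had 9.97 TPM in animal 1, against 12.4 TPM in animal 2, with overlapping intervals. Summed over the 8 genes of mevalonate and isoprenoid synthesis, TPM was nearly equal, at 310 in animal 1 and 308 in animal 2. Equal sums covered unequal genes. With TMM, 4 of the 8 had intervals apart and were higher in animal 1, against 12.5% of all genes with the minimum count. Only 1, Hmgcs1, had them apart and was higher in animal 2, against 20.6% of all genes.

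Fdft1, squalene synthase, takes farnesyl diphosphate into the sterol branch. It had 22.7 TPM in animal 1, against 17.3 TPM in animal 2 (log2 ratio 0.48, intervals apart). Its gene overlaps 774 bases of Ctsb on the other strand, and Ctsb had 446 TPM in animal 1 and 405 in animal 2. The ratio of Fdft1 to Ggps1 within a library was 2.27-fold in animal 1 and 1.40-fold in animal 2, a log2 value of 0.83 ± 0.50 (SD, n = 2). The sterol branch enzyme was the higher in both animals, by an amount that differed between them.

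Sqle, squalene epoxidase, had 18.6 TPM in animal 1, against 19.9 TPM in animal 2. Lss, which closes the ring to lanosterol, had 13.96 TPM in animal 1 and 13.6 in animal 2. Both had overlapping intervals. Lss differed by how it was measured, since its scaled expected counts were 1424 in animal 1 and 1150 in animal 2 (log2 ratio 0.31) while its TPM ratio was 0.04. Its transcripts annotated as retained introns took 25.7% of its TPM in animal 1 and 41.0% in animal 2 in the first transcript table. In the second transcript table that share was 60.8% in animal 1 and 61.7% in animal 2, so the animals differed in the first table only. Over the 3 genes of this stretch TPM summed to 55.2 in animal 1 and 50.8 in animal 2.

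In summed TPM the animals were furthest apart after lanosterol. The 8 genes summed to 408 TPM in animal 1, against 518 TPM in animal 2. Most of that difference was in 1 gene. Dhcr7 (7-dehydrocholesterol reductase, the last step of the Kandutsch-Russell route; chromosome 7, 143823145 to 143848410, plus strand) had 220 TPM in animal 1, against 322 TPM in animal 2, or 271 ± 71.8 TPM (SD, n = 2). Its intervals, 214 to 223 TPM in animal 1 and 312 to 324 TPM in animal 2, lay apart, and its log2 ratio of -0.46 was under the size rule. Dhcr7 took 28.5% of the enzyme sum in animal 1 and 36.7% in animal 2. Without Dhcr7, the other enzymes summed to 552 TPM in animal 1, against 555 TPM in animal 2.

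Hsd17b7, the 3-keto reductase of the sterol demethylation complex (chromosome 1, 169949535 to 169969241, minus strand), was the member furthest apart. It had 15.1 TPM in animal 1, against 28.7 TPM in animal 2. Its intervals of 13.8 to 16.9 TPM in animal 1 and 26.3 to 30.7 TPM in animal 2 lay apart, and the log2 ratio of -0.92 made it 1.89-fold higher in animal 2. Nsdhl, the decarboxylating dehydrogenase that acts just before it (chromosome X, 72918557 to 72958514, plus strand), went the other way. It had 15.4 TPM in animal 1, against 10.2 TPM in animal 2, with intervals apart, and was 1.56-fold higher in animal 1 (log2 ratio 0.64). The 2 partner enzymes were nearly equal in animal 1, and Hsd17b7 was the higher in animal 2.

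Cyp51, the lanosterol demethylase, had 17.3 TPM in animal 1, against 24.05 TPM in animal 2 (log2 ratio -0.30, intervals apart). Tm7sf2, a sterol reductase of the next step, had 7.50 TPM in animal 1, against 11.1 TPM in animal 2 (log2 ratio -0.52, intervals apart). It shares 532 bases with Vps51 on the same strand, where Vps51 had 16.6 TPM in animal 1 and 17.7 in animal 2. Msmo1, the methyl oxidase of the demethylation complex, had 69.5 TPM in animal 1, against 67.9 TPM in animal 2, and its intervals overlapped. Ebp, the sterol isomerase, had 23.6 TPM in animal 1 and 23.1 in animal 2, also with overlap.

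Sc5d, the desaturase before Dhcr7, had 39.1 TPM in animal 1, against 31.4 TPM in animal 2 (log2 ratio 0.33, intervals apart). Dhcr7 exceeded it 5.63-fold in animal 1 and 10.2-fold in animal 2, a log2 ratio within the library of 2.92 ± 0.61 (SD, n = 2). The log2 ratios of these successive enzymes between the animals had opposite signs. With TMM, 4 of 8 genes in this stretch were higher in animal 1 and 4 in animal 2, and of these 2 and 4 had intervals apart. Over all genes with the minimum count, 12.5% had intervals apart and higher in animal 1, and 20.6% apart and higher in animal 2.

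**Figure D2:**
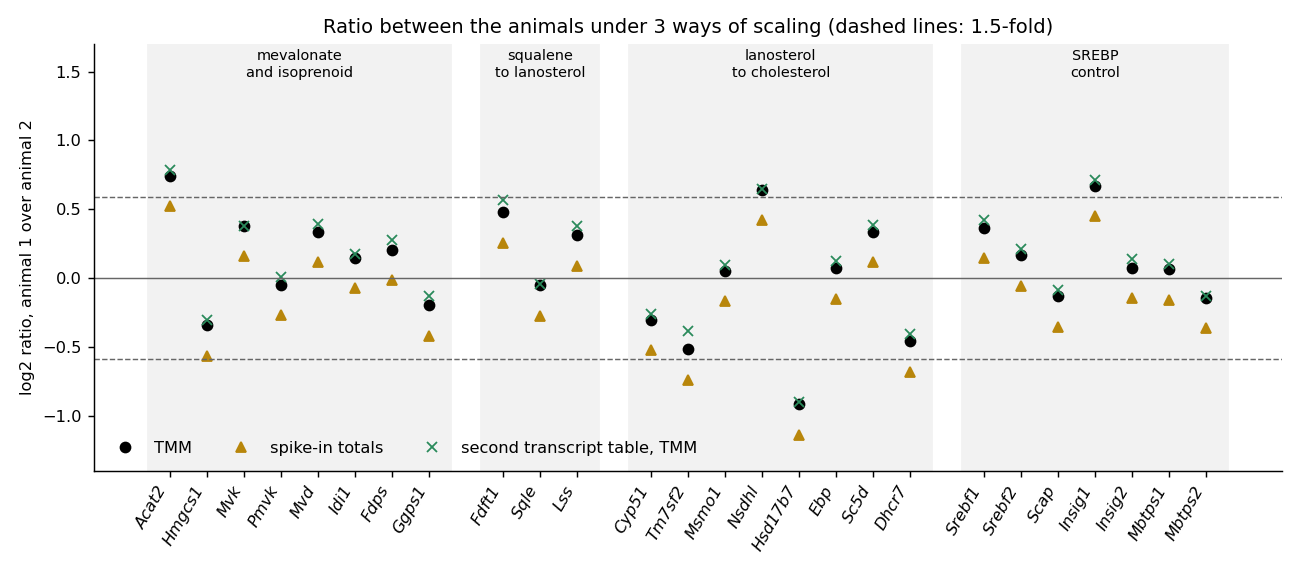
Log2 ratio of animal 1 over animal 2 for each gene, from TMM-scaled counts, spike-in totals and the second transcript table, with dashed lines at 1.5-fold. Acat2, Nsdhl and Insig1 lie above the upper line with TMM and Hsd17b7 lies below the lower line, while spike-in totals move every gene down together.

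Of the SREBP control genes, Insig1 and Srebf1 were the most abundant. Insig1, which retains SCAP in the endoplasmic reticulum and is itself a target of SREBP (chromosome 5, 28071363 to 28078662, plus strand), had 66.5 TPM in animal 1, against 43.2 TPM in animal 2. The intervals of 63.7 to 67.1 TPM in animal 1 and 41.1 to 43.9 TPM in animal 2 lay apart, and the log2 ratio of 0.67 made it 1.59-fold higher in animal 1. Insig2, the relative that also retains SCAP, had 17.0 TPM in animal 1, against 18.5 TPM in animal 2 with overlapping intervals. Insig1 exceeded Insig2 3.92-fold in animal 1 and 2.33-fold in animal 2 (log2 1.60 ± 0.53, SD, n = 2).

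Srebf1 encodes SREBP-1 (chromosome 11, 60199089 to 60222581, minus strand). It had 56.1 TPM in animal 1, against 42.6 TPM in animal 2 (log2 ratio 0.36, intervals apart). Srebf2, which encodes SREBP-2, the main activator of cholesterol synthesis genes, had 25.9 TPM in animal 1 and 23.9 in animal 2 with overlapping intervals. Srebf1 exceeded Srebf2 2.17-fold in animal 1 and 1.78-fold in animal 2, a log2 ratio of Srebf2 to Srebf1 of -0.97 ± 0.20 (SD, n = 2). Of the 9 adipocyte markers, summing to 3495 TPM in animal 1, against 2241 TPM in animal 2, 4 were called higher in animal 1 (Fabp4, Ucp1, Plin1 and Retn) and Lep was undetected. Their part in the higher Srebf1, Insig1 and Acat2 of animal 1 was not tested.

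Scap, the escort of SREBP, had 32.0 TPM in animal 1, against 35.5 TPM in animal 2. Mbtps1, the site-1 protease, had 28.8 TPM in animal 1 and 28.2 in animal 2. Mbtps2, the site-2 protease, had 6.24 TPM in animal 1, against 7.47 TPM in animal 2. Intervals of all 3 overlapped. Mbtps1 exceeded Mbtps2 4.61-fold in animal 1 and 3.78-fold in animal 2 (log2 2.06 ± 0.20, SD, n = 2). Insig2, Mbtps1, Srebf2 and Scap were among the 12 members whose intervals overlapped between the animals.

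The order of levels was broadly kept. Spearman's rho over the 26 genes was 0.92 between the animals, as a description, since genes of 1 library share its depth. Of 25 neighbours in the order of mean TPM, 12 stood in the same order in both animals, and 3 had intervals apart in both. Those were Dhcr7 over Fdps, Hmgcs1 over Msmo1 and Srebf1 over Sc5d. The other neighbours did not differ beyond their intervals in both animals.

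Transcript identity was followed in the first transcript table. The transcript that led in animal 1 also led in animal 2 for all 26 genes, among 174 annotated transcripts, and each leader was protein-coding. Its share of the gene's TPM had a median of 75.0%, with 5 genes at or over 90% (Nsdhl, Sqle, Mvd, Idi1 and Insig1) and 5 under 50% (Lss, Srebf1, Ebp, Ggps1 and Insig2). In the second transcript table, made by another method, the same transcript led for 19 of the 26. Those that differed were Acat2, Hmgcs1, Mvd, Fdps, Lss, Ebp and Mbtps1. The leaders of Mvd and Lss in the second table were not annotated as protein-coding. Mvd-202, annotated as nonsense-mediated decay, took 55.2% in animal 1 and 74.7% in animal 2. Lss-203, a retained intron, took 47.8% in animal 1 and 50.4% in animal 2. The shares of Mbtps1-201 were 85.0% in animal 1 and 82.0% in animal 2 in the first table, and 12.7% in animal 1 and 0.115% in animal 2 in the second, where Mbtps1-202 led.

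**Figure D3:**
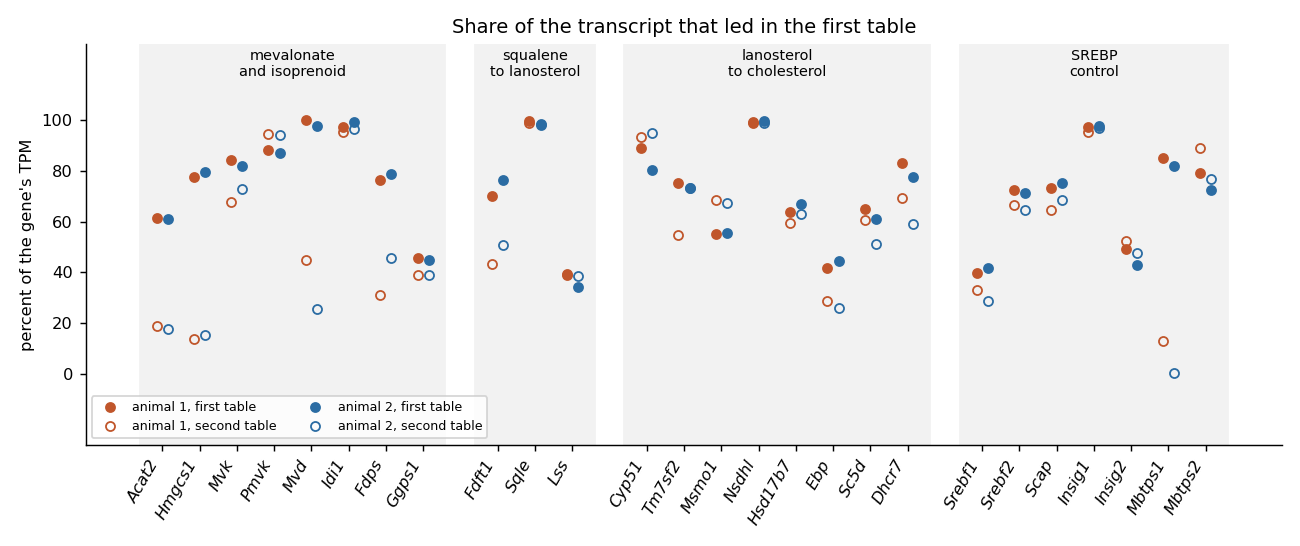
Share of the gene's TPM held by the transcript that led in the first table, for animal 1 (orange) and animal 2 (blue), in the first (filled) and second (open) transcript table. The tables lie close for Sqle and Nsdhl and far apart for Mbtps1, Hmgcs1 and Acat2.

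Srebf1 has 2 main starts 10139 bases apart, which give SREBP-1a and SREBP-1c. These forms share exon 2 onwards. Exon 1 holds 91 coding bases in Srebf1-201 and 19 in Srebf1-207, so the protein of Srebf1-201 is longer by 24 residues at its start, as SREBP-1a is known to be. Srebf1-201 had 22.2 TPM in animal 1, against 17.8 TPM in animal 2, and Srebf1-207 had 8.87 TPM in animal 1 and 7.96 in animal 2. The SREBP-1a form exceeded the SREBP-1c form 2.50-fold in animal 1 and 2.24-fold in animal 2 (log2 1.24 ± 0.11, SD, n = 2). In the second transcript table the excess was 1.89-fold in animal 1 and 1.39-fold in animal 2. Taken by start, with a further transcript counted at the SREBP-1c start, it was 1.33-fold in animal 1 and 1.11-fold in animal 2 in that table, and as before in the first. Another 8 transcripts begin further downstream and were assigned to neither form. They held 12.85 TPM in animal 1 and 10.27 in animal 2 in the first table, and 45.6 and 37.6 TPM in the second. The ratios of the forms leave this part out.

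**Figure D4:**
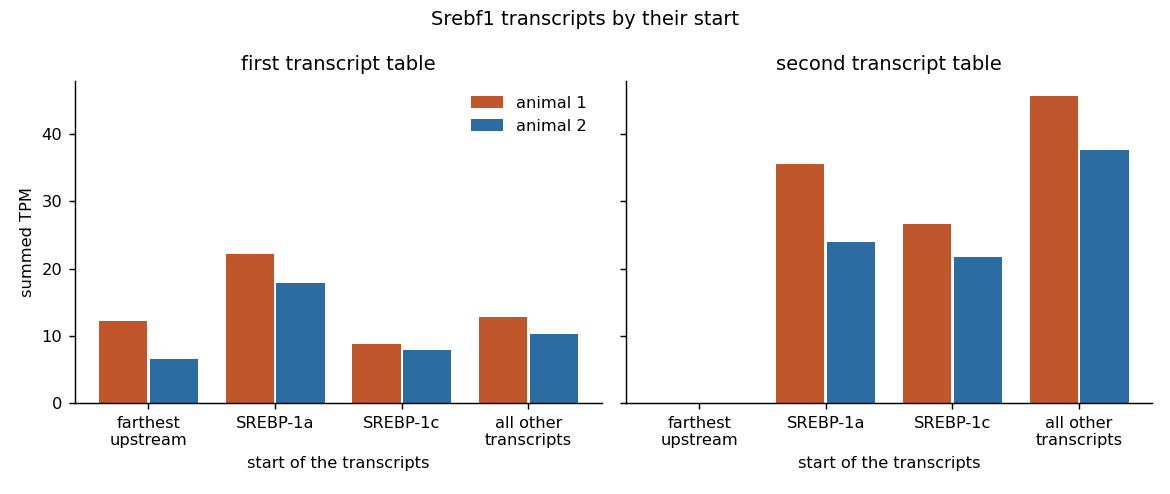
Summed TPM of Srebf1 transcripts by their start, for animal 1 (left bar, orange) and animal 2 (right bar, blue), in the first and second transcript table. The SREBP-1a start is above the SREBP-1c start in both animals and both tables, and the farthest upstream start is at 0 in the second table.

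The farthest upstream start of Srebf1, that of a transcript annotated as processed and non-coding, had 12.2 TPM in animal 1 and 6.53 in animal 2 in the first table, and was listed at 0 in the second. Insig2 has an upstream start used in mouse liver. In the first table that start was listed at 0 in animal 1 and had 0.46 TPM in animal 2. The 0.46 TPM came from Insig2-202, with 19.4 expected counts and an interval of 0.05 to 1.08 TPM. In the second table the upstream start was listed at 0 in both animals. The downstream start of Insig2 had 16.9 TPM in animal 1, against 14.1 TPM in animal 2, in the first table. In the second it had 26.5 TPM in animal 1 and 17.3 in animal 2. In the first table Dhcr7 had 218 TPM in animal 1 and 315 in animal 2 in transcripts from its downstream starts. Its upstream starts had 0.13 TPM in animal 1, against 0.84 TPM in animal 2. In the second table the upstream starts of Dhcr7 had 17.1 TPM in animal 1 and 11.9 in animal 2, the opposite direction. The downstream starts of Dhcr7 had 432 TPM in animal 1 and 588 in animal 2 there.

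Genes around the pathway were followed as named lists, whose median log2 ratios with TMM are given beside the 0.01 of all genes. Of the 12 lipogenic SREBP targets all were detected, with sums of 3207 TPM in animal 1, against 3580 TPM in animal 2, and none was called apart (median -0.07). Scd1, the stearoyl-CoA desaturase, had 597 TPM in animal 1 and 581 in animal 2. Fads2, the delta-6 desaturase, had 522 TPM in animal 1 and 561 in animal 2. Fasn, the fatty acid synthase, had 488 TPM in animal 1, against 650 TPM in animal 2. The summed lipogenic targets exceeded the summed enzymes of sterol synthesis in both animals.

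Of 9 other genes of sterol synthesis and of the response to sterol, 8 were detected and none was called (median -0.09). Of 12 partners of retention and degradation in the endoplasmic reticulum, all were detected and none was called (median -0.20). Pgrmc1, which binds members of this pathway, had 148 TPM in animal 1 and 176 in animal 2. Vcp, the ATPase that extracts proteins from the membrane, had 106 TPM in animal 1 and 103 in animal 2. Of 6 genes of cholesterol uptake and stores all were detected (median 0.02). Scarb1, the receptor for high-density lipoprotein, was called higher in animal 2, with 559 TPM in animal 1, against 897 TPM in animal 2. Soat1, which esterifies cholesterol, had 415 TPM in animal 1 and 443 in animal 2, and Lipe, the lipase that frees it, had 99.8 TPM in animal 1 and 100.2 in animal 2.

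Of 12 oxysterol and LXR genes 10 were detected (median 0.06). Abca1, the cholesterol exporter, was called higher in animal 2, with 31.2 TPM in animal 1, against 82.8 TPM in animal 2. Nr1h3, the receptor LXR-alpha, was called higher in animal 1, with 12.2 TPM in animal 1, against 6.70 TPM in animal 2. Nr1h2, LXR-beta, had 29.8 TPM in animal 1 and 38.6 in animal 2, and Lpcat3, a phospholipid acyltransferase, had 29.99 TPM in animal 1 and 28.05 in animal 2. Of the 7 steroidogenic cortex markers, summing to 15669 TPM in animal 1, against 20106 TPM in animal 2, Star and Nr5a1 were called higher in animal 2. With TMM, Hsd3b1 and Cyp21a1 were also higher in animal 2, while Cyp11b1 (log2 ratio 0.25), Cyp11a1 (0.24) and Mc2r (0.18) were higher in animal 1, all with intervals apart. Their part in the higher Abca1, Scarb1 and Hsd17b7 of animal 2 was not tested.

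**Figure D5:**
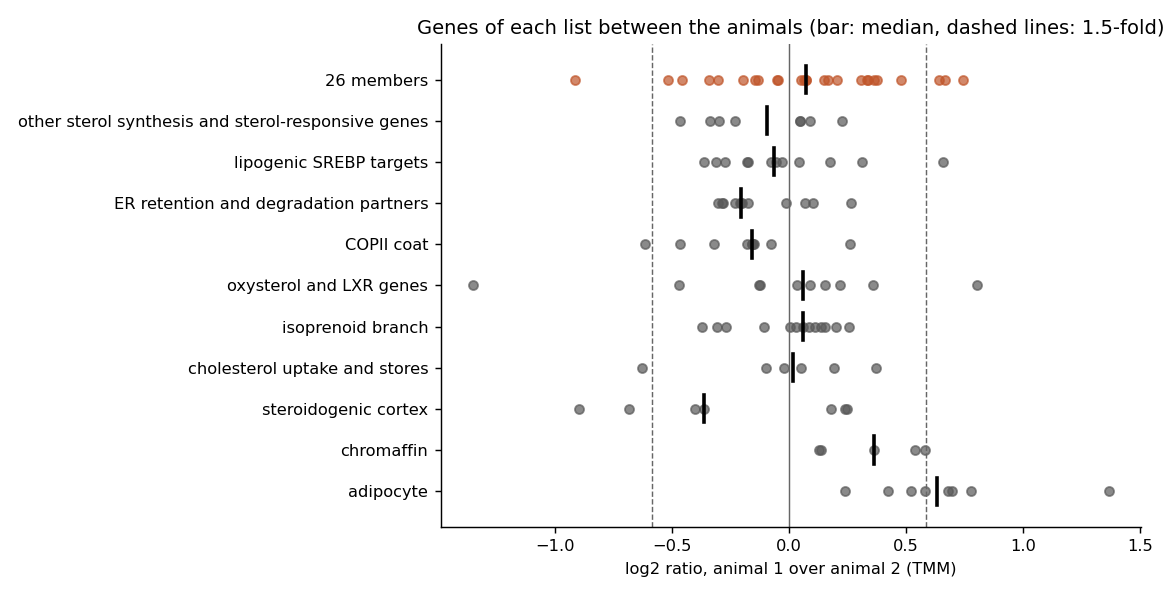
Log2 ratio of animal 1 over animal 2 for the genes of each list with the minimum count (points) and their median (bar), with dashed lines at 1.5-fold. The 26 members lie on both sides of 0 with a median of 0.07, while with TMM the chromaffin and adipocyte markers lie above 0 and the cortex median is -0.36.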

How the data were processed

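The authors deposited 3 tables per library. The table of genes and the first of transcripts hold expected counts and TPM per the file headers, with a lower and an upper bound of TPM, and the transcript table also holds the percent of a gene's TPM in each transcript. The second transcript table holds deposited estimated counts and TPM. Per the labels and the file descriptions, mm10 and GENCODE M21 were used. The sources used here name no program or version.

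Members and lists were chosen with earlier results of these data known. Scripts in Python 3.11.15 matched all 55536 genes to GENCODE M21, left out 26248 entries named only by a number and kept 96 spike-ins for scaling. Expected counts were rounded, filtered at a mean of 50, scaled with TMM (edgeR 4.0.16, R 4.3.3) and given 0.5 before the log2 ratio. The ratio was tested on simulated data. With 1 library per animal, no p-value was computed and the SD also holds differences in handling. Strand was kept by the kit. Of the overlaps on the other strand, only that with the most abundant partner, Ctsb, is given with its values. Hmgcs1, Mvd, Idi1, Ggps1, Lss, Cyp51, Srebf1, Scap, Insig2 and Mbtps2 also overlap genes on the other strand. The highest of those partners, Akap9, had 16.65 TPM in animal 1 and 19.2 in animal 2. Alternatives used DESeq2 1.42.0 size factors, spike-in totals, library size, TPM ratios, the second table, other minima and pseudocounts, and leaving out each animal. All 26 members were named, and of each other list the 3 highest by mean TPM and every gene called apart. The values of some genes of these lists are not reported here.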

Additional observations from a re-analysis of the deposited data

How the results depend on the processing

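All 26 genes stayed detected at 0.1, 1 and 5 TPM, in the second transcript table and in each animal alone. The sums depend on what shares the total. The enzymes summed to 1598 TPM in the second table and 2728 TPM over nuclear protein-coding genes only, and the control genes to 398 and 717 TPM. In single animals the enzyme sum ran from 773 to 877 TPM and the control sum from 199.5 to 232 TPM.

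Scaling by spike-in totals moved the median log2 ratio of all genes to -0.21, against 0.01 with TMM, and that of the members to -0.15. The members lay 0.06 above all genes under TMM, DESeq2, spike-in and library size scaling. Each of these scalings shifts every log2 ratio by the same amount, so this difference could not change between them. With spike-ins 9 members were higher in animal 1, and the 3 called genes were Tm7sf2, Hsd17b7 and Dhcr7, all higher in animal 2. Acat2, Insig1 and Nsdhl kept their direction there. Over 6 scalings and tables, 9 members were higher in animal 1 throughout and 8 in animal 2. At 2-fold in place of 1.5-fold, 0 members were called. In the other 8 settings the same 4 were called. Some of these could not have changed the calls. Every member had at least 354.97 expected counts in each library, so a lower or absent minimum count could add or remove no member. A pseudocount of 5 was also small beside these counts.

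Without length correction, the log2 ratio of Srebf2 to Srebf1 was -0.37 and that of Insig1 to Insig2 was 2.44. In single animals the ratios ran from -1.12 to -0.83 for Srebf2 to Srebf1, 1.22 to 1.97 for Insig1 to Insig2, 1.92 to 2.20 for Mbtps1 to Mbtps2, 0.48 to 1.19 for Fdft1 to Ggps1, and 2.49 to 3.36 for Dhcr7 to Sc5d. The median leading share was 75.7% to 75.8% in single animals. The same transcripts, chosen as leaders in the first table, had a median share of 62.6% in the second, where some of them did not lead. The cause of these shifts was not tested. Ratios between the animals cannot leave out an animal. No paired analysis was possible because the series holds 1 group. The number of animals, 2, limits all statements on spread.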

Other observations

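The branches that leave the sterol pathway were detected throughout. All 13 genes that carry isoprenoids to proteins, ubiquinone and dolichol reached 1 TPM in each library, and none was called apart (median log2 ratio 0.06). Fnta, a subunit that farnesyl and geranylgeranyl transferases share, had 35.6 TPM in animal 1, against 31.0 TPM in animal 2. Rabggtb, a subunit of the transferase for Rab proteins, had 23.2 TPM in animal 1 and 31.1 in animal 2. Coq2, which joins the ubiquinone ring to its tail, had 20.8 TPM in animal 1 and 21.6 in animal 2.

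The COPII coat carries SCAP and SREBP out of the endoplasmic reticulum. All 10 of its genes were detected, 9 of them higher in animal 2 by TMM, with a median log2 ratio of -0.16. The remaining 1 was higher in animal 1, against 51.7% of all genes with the minimum count. With spike-in totals 26.6% of all genes were higher in animal 1. Sec24a, a cargo-binding subunit, was called higher in animal 2, with 8.27 TPM in animal 1, against 14.2 TPM in animal 2. It was the 1 call among the 10, where 4.67% of all genes were called higher in animal 2. Sar1a, the GTPase that starts the coat, had 52.8 TPM in animal 1 and 65.2 in animal 2, Sec31a, of the outer coat, had 40.2 TPM in animal 1 and 49.5 in animal 2, and Sec24d had 32.0 TPM in animal 1 and 47.8 in animal 2.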
